A study of Mus musculus with 321 samples.

Results

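The nuclear factor I family consists of 4 genes, Nfia, Nfib, Nfic and Nfix, of 21887 protein-coding mouse genes with a position in the gene table. They were chosen on measured values of these data: the window of Nfia, that is the gene body and 50 kb on each side, had one of the highest numbers of open regions that were present in wild-type thymocytes and absent in thymocytes without Tcf-1, and the other family members were added by name. The comparison of wild-type and mutant thymocytes is therefore described without a test. The fibroblast and Tcf-1 binding data were not part of that criterion, but earlier results of these data were known when the choice was made.

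ATAC-seq, in which a transposase cuts accessible DNA, gave the open chromatin of 12 libraries. Thymocytes sorted as CD4+CD8+ (double-positive, DP) came from mice labelled C56BL/6 (WT), 2 libraries, and from mice labelled TCF-1-/- deltaVII (KO), 2 libraries. NIH3T3, an established fibroblast line of NIH/Swiss mice, was infected with a control virus (Empty RV, 4 libraries) or with a virus that carries Tcf-1 (Tcf-1 RV, 4 libraries). H3K27me3 and H3K9me3, histone marks of repressed chromatin, were mapped in NIH3T3 with no retrovirus named (2 libraries each), and Tcf-1 binding in Tcf-1 RV cells was given as 1 pooled list of 40562 summits. The labels name no driver or cell type for the KO allele and give no age or number of mice, and NIH3T3 is 1 line, grown for 8 to 12 passages. No label ties a replicate to its own mouse or culture, and p-values therefore measure only the spread between these libraries.

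Nuclear factor I proteins are transcription factors that bind DNA as dimers at paired TTGGCA-like sites through a DNA-binding domain that all family members share. Nfia and Nfib are known for their part in the formation of glia, and Nfib also for lung maturation. Nfic is known for tooth root formation, and Nfix for the switch from embryonic to fetal muscle genes. Tcf-1, the product of Tcf7, is a high-mobility-group transcription factor of the T lineage that binds CTTTGA-type motifs. No RNA was analysed here, so the values below describe open, bound and repressed chromatin and not the level of any transcript.

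The 4 genes differ in size and surroundings (all positions GRCm38). Nfia spans chr4:97578066-98118876 and its window covers 640.8 kb. Nfib lies on the same chromosome at chr4:82290173-82506751 with a window of 316.6 kb. No other protein-coding gene lies in either window. Nfix, at chr8:84704712-84801238 (196.5 kb), shares its window with 8 protein-coding genes, among them Ier2, Lyl1 and Calr. Nfic, at chr10:81396191-81431919 (135.7 kb), also shares its window with 8, among them Hmg20b, Fzr1 and Celf5. The median window of all genes covers 117.1 kb, so that counts per window favour Nfia, and a density per 100 kb is given beside them.

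RefSeq promoter entries (GRCm38.p6), each with 250 bases before and 50 bases after a transcription start, matched 3 of the 4 genes: 1 entry for Nfia, 1 for Nfic and 4 for Nfix. None of these 6 stretches was overlapped by a peak of any of the 12 ATAC-seq libraries, where 40.1% of all entries were. All 6 starts lie inside the gene body and not at its 5′ end, so starts at the gene ends are not covered by these entries. At Nfic a region 1012 bp beyond the 5′ end was held by every NIH3T3 library. The 250 bases before the start are shown for Nfia and Nfic, which hold a Tcf-1 type motif, and for the Nfix start that lies nearest to an open fibroblast region, 407 bp from the start site. Capitals mark the motif.
Nfia, chr4:97581693-97581942, plus strand: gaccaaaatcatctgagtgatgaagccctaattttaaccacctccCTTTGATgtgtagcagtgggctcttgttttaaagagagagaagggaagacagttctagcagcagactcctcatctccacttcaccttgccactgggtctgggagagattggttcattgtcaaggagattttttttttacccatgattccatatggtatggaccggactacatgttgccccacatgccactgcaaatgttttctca
Nfic, chr10:81427174-81427423, minus strand: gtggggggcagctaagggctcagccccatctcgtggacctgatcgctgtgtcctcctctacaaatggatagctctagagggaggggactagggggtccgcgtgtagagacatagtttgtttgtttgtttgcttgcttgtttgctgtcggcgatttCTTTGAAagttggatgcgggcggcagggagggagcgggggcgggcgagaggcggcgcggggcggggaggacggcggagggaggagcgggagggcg
Nfix, chr8:84775829-84776078, minus strand: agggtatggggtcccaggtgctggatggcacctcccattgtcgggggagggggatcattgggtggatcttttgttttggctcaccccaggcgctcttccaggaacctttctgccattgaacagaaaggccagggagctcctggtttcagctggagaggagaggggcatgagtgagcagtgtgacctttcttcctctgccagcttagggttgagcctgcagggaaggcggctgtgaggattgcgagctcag
CTTTGAT and CTTTGAA were searched on both strands over the 300 bases of each entry. CTTTGAT stood at -205 to -199 from the Nfia start, and CTTTGAA at -95 to -89 from the Nfic start, while neither was found at any of the 4 Nfix starts. Of all 32851 promoter entries, 3.73% held CTTTGAT, 5.14% held CTTTGAA and 8.65% held either. TTGGCA, a core of the family's own binding site, was in none of the 6 entries and in 14.1% of all. The nearest Tcf-1 summit of the Nfic start was 314 bp away, inside the gene, at chr10:81426859 with a deposited score of 12.05, and lay in no peak. The nearest summit of the Nfia start was 40067 bp away.

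The lengths of the peak lists set the limits of these data, since the ATAC-seq lists give positions only and the read depth is unknown. The lists of WT 1 and WT 2 run to 23249 and 30985 peaks, those of KO 1 and KO 2 to 11171 and 12209. NIH3T3 lists ran from 22778 (Empty RV 1) to 62639 (Tcf-1 RV 4). By tags in the deposited file names, day 2 covers NIH3T3 replicates 1 and 2 of both groups, and day 4 the other replicates. The Empty RV lists with the day 2 tag were the shortest of their group, and Tcf-1 RV replicate 3 was the shortest of its own. Peaks at the gene ends of DP thymocyte markers (Cd3e, Cd4, Cd8a, Rag1, Bcl11b, Ptcra) were called for 6 of 6 genes in both WT libraries, for 1 and 3 of 6 in the KO libraries and for 0 of 6 in all NIH3T3 libraries. Ptcra was the marker with a gene-end peak in both KO libraries. Fibroblast markers (Col1a1, Col1a2, Pdgfrb, Twist2, Fbn1, Postn) had gene-end peaks for 1 and 2 of 6 in WT, 0 of 6 in KO and 2 to 6 of 6 in NIH3T3. Gene-end peaks of 3 B cell markers were called for 1 and 1 in WT and 0 in KO, of 3 myeloid markers for 0 and 1 in WT and 0 in KO, of 2 erythroid markers for 0 and 1 in WT and 1 and 0 in KO, and of 2 thymic epithelial markers for 0 and 1 in WT and 1 and 1 in KO. The part of the DP marker peaks and of these other cells in the results below was not tested. The window of Tcf7, the targeted gene, held 8 peaks in WT 1 and 7 in WT 2, 4 and 3 in the KO libraries, 2, 2, 4 and 7 in Empty RV and 10, 10, 7 and 11 in Tcf-1 RV, and peak positions do not check the KO allele.

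**Figure D1:**
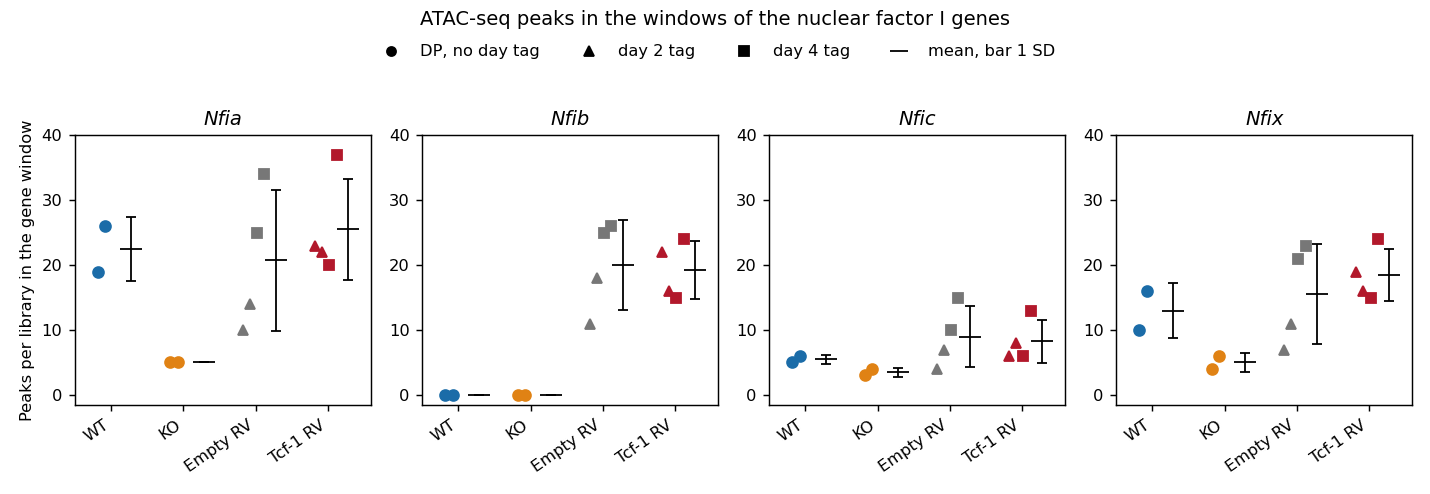
Number of ATAC-seq peaks (y axis) in the window of each nuclear factor I gene, for each library of the 4 groups (x axis). Each symbol is 1 library, its shape gives the day tag, and bars give the mean and 1 SD. Nfib is at 0 in all DP libraries, while in NIH3T3 the Empty RV and Tcf-1 RV libraries overlap for every gene.

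In DP thymocytes the 4 windows ranged from densely open to empty. The Nfia window held 19 peaks in WT 1 and 26 in WT 2, against 5 in each KO library (22.5 ± 4.95 and 5 ± 0, SD, n = 2 each). Both WT libraries were above both KO libraries. The Nfix window held 10 peaks in WT 1 and 16 in WT 2, against 4 and 6 in KO (13 ± 4.24 and 5 ± 1.41, n = 2 each), again without overlap. The Nfic window held 5 peaks in WT 1 and 6 in WT 2, against 3 and 4 in KO, a gap of 1 peak between the groups. Nfib held 0 peaks in each of the 4 DP libraries. A missing peak in these bulk lists cannot tell fewer cells with an open site apart from less signal in each cell.

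The shorter KO lists weigh on these numbers. Per 10000 listed peaks, Nfia held 8.17 and 8.39 in WT against 4.48 and 4.1 in KO, so that the order of the groups was kept. For Nfix the scaled values overlapped, with 4.3 and 5.16 in WT against 3.58 and 4.91 in KO. For Nfic the order turned, with 2.15 and 1.94 in WT against 2.69 and 3.28 in KO. When every DP list was cut to its 11171 widest peaks, the WT mean stayed above the KO mean for Nfia by 4.5 peaks, was equal to it for Nfic and was lower for Nfix by a difference of -2.

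Merging the DP peaks gave 49 regions in the 4 windows, of which 33 were held by both WT libraries. Among these 33, 19 were lost, meaning that neither KO library held them, 5 were held by 1 KO library and 9 were held by all 4 libraries. Over all regions of both WT libraries 45.7% were lost and 42.1% were held by all 4 libraries. No region was gained (held by both KO libraries and no WT library), a pattern seen for 0.142% of all DP regions. The members were chosen on this contrast, so these shares are given for orientation only.

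Nfia held 26 DP regions, a number that 2 windows exceeded, and 13 of the 19 lost regions. Per 100 kb the DP regions came to 4.057 at Nfia, where 75.1% of windows had fewer, and to 8.65 at Nfix, where 98.3% had fewer. Only the windows of Pde4d and Wwox, with 14 each, had more lost regions, and Med12l, St8sia1 and Vps13d also had 13. Sdccag8, Sgms1 and Tnfrsf8 stood just below with 12. Per 100 kb the Nfia window had 2.029 lost regions and 92.4% of windows had fewer. The Nfix window, with 5 lost regions, had 2.544 per 100 kb and 94.5% of windows had fewer. Nfic had 1 lost region and Nfib had none to lose. Without WT 1, the shorter WT list, 20 regions of Nfia, 10 of Nfix and 2 of Nfic were called lost, and without KO 2 Nfic also had 2.

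The lost regions of Nfia were spread along the gene, 10 inside it and 3 in the flanks, from chr4:97544025-97544335, which lies 33731 bp before the gene, to chr4:98131708-98131969, which lies 12832 bp beyond it. They were 232 to 681 bp wide with a median of 414 bp, against a median of 335 bp for all lost DP regions. With equal lists of the widest peaks 5 of them were still called lost: chr4:97618702-97619303, chr4:97673765-97674331, chr4:97831326-97832006, chr4:98020829-98021298 and chr4:98082457-98082961. The widest, at chr4:97831326-97832006, had a peak in both WT libraries and in none of the other 10. A loss seen with all peaks but not with equal lists cannot be told apart from the shorter KO lists.

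Held by all 4 DP libraries were 4 regions of Nfia, all inside the gene. They lie at chr4:97657598-97657974, chr4:97751091-97751958, chr4:97771973-97772590 and chr4:98091288-98091738. The second and the third were also open in all 8 NIH3T3 libraries, and the other two in none. A further 2 regions were held by both WT and 1 KO library, at chr4:97745737-97746226 and chr4:98040249-98040632, and 7 were held by 1 WT library alone, each time WT 2, the longer of the WT lists.

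**Figure D2:**
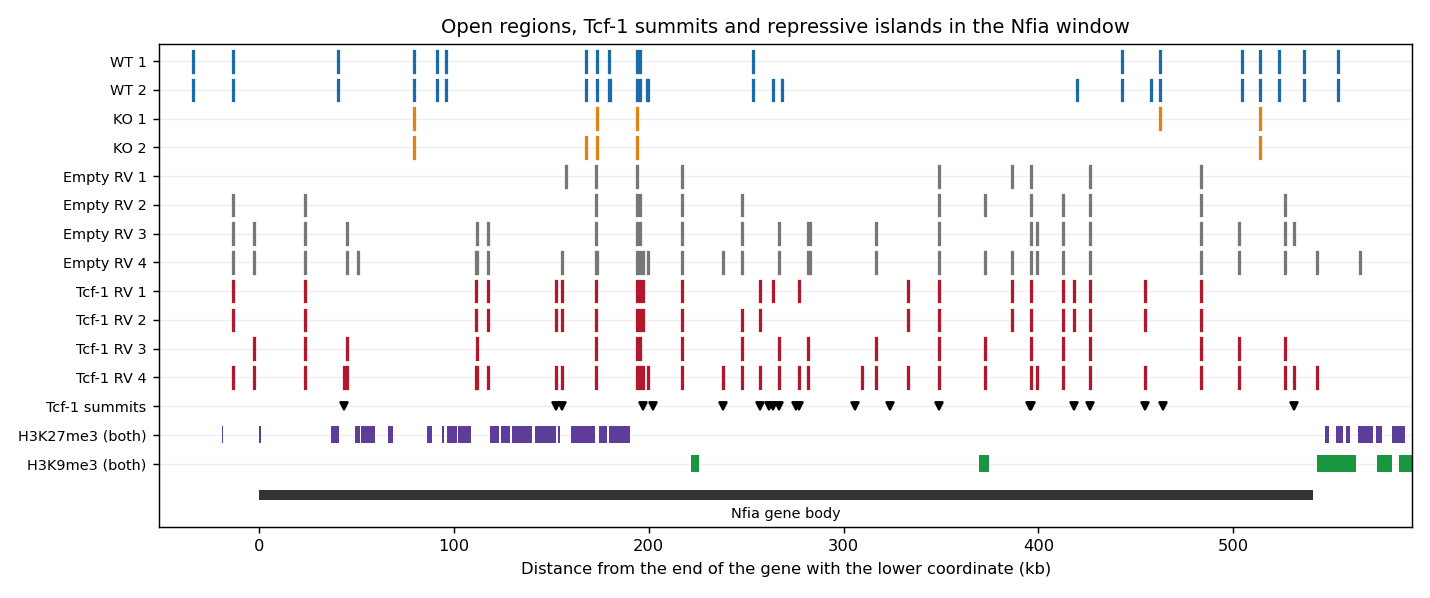
Map of the Nfia window, with distance from the lower-coordinate end of the gene in kb on the x axis and 1 row per ATAC-seq library. Vertical bars are regions held by that library (DP and NIH3T3 regions were merged separately), triangles are Tcf-1 summits, and boxes are islands shared by both histone replicates. The WT rows have no region common to both libraries between 253.9 and 442.8 kb, where NIH3T3 has 17 regions and 13 summits lie.

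The Nfia window held 26 DP regions, of which 20 had no peak in any NIH3T3 library. The share of all DP regions without an NIH3T3 peak was not computed, so this count only describes the window. Of the 4 DP regions held by all DP libraries, 2 were open in all 8 NIH3T3 libraries. Nfia was chosen on its lost DP regions. Of these 13, 11 had no peak in any NIH3T3 library, against 65.1% of all lost DP regions. The exceptions were chr4:97564827-97565144 in the flank, with peaks in 6 NIH3T3 libraries, and chr4:97773384-97773615, with peaks in 7. Conversely 38 of the 45 NIH3T3 regions of the window had no DP peak. Of all NIH3T3 regions 79.7% had none, so this was common to NIH3T3 regions at large. The longest stretch of the window without a region of both WT libraries, chr4:97832007-98020828, covered 188.8 kb. Inside it lay 17 NIH3T3 regions, 3 of them open in all 8 libraries, and 13 of the 22 Tcf-1 summits of the window, beside 3 DP regions of WT 2 alone. That stretch was chosen from its values.

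At Nfix, 3 of the 5 lost DP regions lay in the gene: chr8:84722924-84723269, chr8:84737652-84738014 and chr8:84745397-84745841. The first of them was open in 7 NIH3T3 libraries and the other two in none. The other lost regions, chr8:84687346-84687606 and chr8:84689212-84689430, overlapped the neighbouring gene Trmt1. The region that overlapped Calr, another gene of the window, was held by all 4 DP libraries and open in all 8 NIH3T3 libraries. At the end of Nfix with the higher coordinate, which is its 5′ side by the strand of the promoter entries, chr8:84800270-84800613 was held by WT 2 alone and by Empty RV 4 and Tcf-1 RV 4.

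At Nfic no DP region lay inside the gene. The 3 regions held by all 4 DP libraries overlapped Hmg20b, Mfsd12 and Fzr1, and the single lost region, chr10:81470631-81470884, overlapped Celf5. The region nearest to Nfic, chr10:81432753-81433293, lies 834 bp beyond the higher-coordinate end, the 5′ side of this gene, and was held by both WT libraries, KO 2 and all 8 NIH3T3 libraries. The Nfic and Nfix windows thus count neighbouring genes: 14 of the 49 DP regions overlapped a gene outside the family, all in these windows.

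Nfib stood apart from the other members in DP cells. Its window was one of 4853 (22.2% of all) without any DP region. It also held 7 NIH3T3 regions that were open in all 8 libraries, a number reached by 429 windows (1.96%). Of all windows, 17 (0.0777%) had no DP region together with at least 7 such NIH3T3 regions. The Nfib window covers 316.6 kb, and 95.9% of windows are shorter.

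**Figure D3:**
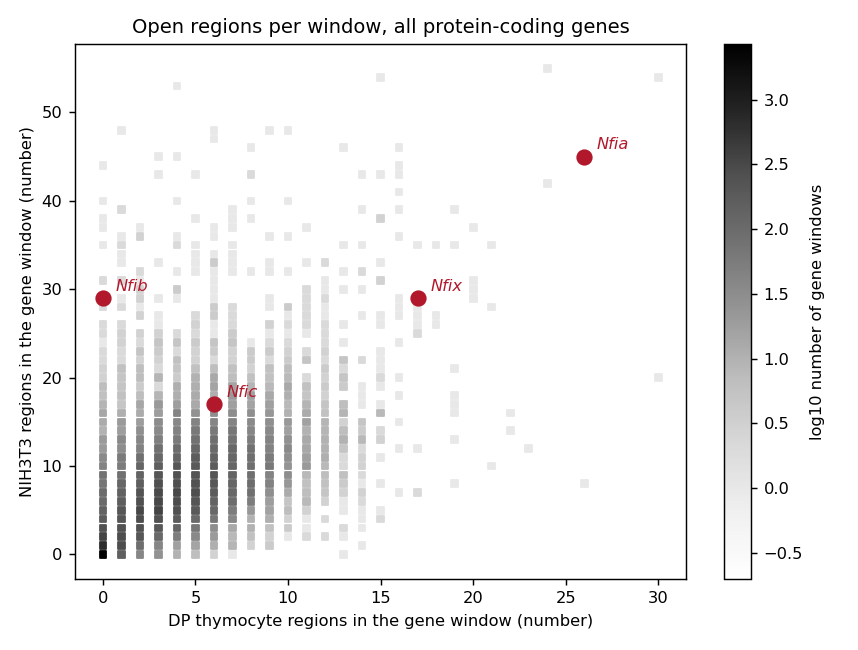
Number of DP regions (x axis) against number of NIH3T3 regions (y axis) in the windows of all 21887 protein-coding genes, with shading for the log10 number of windows at each point and the family members as labelled red points. Nfib lies at 0 DP and 29 NIH3T3 regions, Nfia at 26 and 45.

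In NIH3T3 fibroblasts each of the 4 windows was open in every library, and in none did the groups differ by more than the spread between libraries. The Nfia window held 10, 14, 25 and 34 peaks in Empty RV replicates 1 to 4 and 23, 22, 20 and 37 in Tcf-1 RV (20.8 ± 10.9 and 25.5 ± 7.77, SD, n = 4 each). The lowest values were those of the Empty RV libraries with the day 2 tag, and the groups overlapped. The difference of 4.75 peaks had p = 0.5429 in the exact two-sided permutation test.

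Nfix followed the same order of libraries, with 7, 11, 21 and 23 peaks in Empty RV and 19, 16, 15 and 24 in Tcf-1 RV (difference 3, exact permutation p = 0.5429). Nfib held 11, 18, 25 and 26 peaks in Empty RV and 22, 16, 15 and 24 in Tcf-1 RV (difference -0.75, exact permutation p = 0.9143). Nfic held 4, 7, 10 and 15 in Empty RV and 6, 8, 6 and 13 in Tcf-1 RV (difference -0.75, exact permutation p = 0.8571). All groups overlapped. The smallest p that 4 against 4 libraries allow is 0.0286, so that after Benjamini-Hochberg adjustment over all windows no gene could pass. Without adjustment 0.553% of all windows had p below 0.05 with more peaks in Tcf-1 RV and 0.0274% with fewer, and with adjustment 0% did in either direction. No member was among them.

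Within the day tags the differences had opposite signs. With the day 2 tag Tcf-1 RV exceeded Empty RV by 10.5 peaks for Nfia, 8.5 for Nfix, 4.5 for Nfib and 1.5 for Nfic. With the day 4 tag the differences were -1, -2.5, -6 and -3. Each tag has 2 libraries per group, too few for p below 0.05, and over the pairs of equal replicate number the exact sign-flip p was 0.375 for Nfia, 0.625 for Nfix and 0.75 for Nfib and Nfic.

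Scaled to 10000 listed peaks, Nfib had the member difference with the smallest p. It held 4.83, 5.2, 5.34 and 4.48 peaks per 10000 in Empty RV and 4.62, 3.68, 4.1 and 3.83 in Tcf-1 RV (4.96 ± 0.387 and 4.06 ± 0.414, SD, n = 4 each). Tcf-1 RV was lower in 4 of 4 pairs, and the ranges overlapped between Tcf-1 RV 1 and Empty RV 4. The exact permutation p was 0.05714 before any adjustment, which did not pass. The scaled differences of Nfia (0.41), Nfix (0.22) and Nfic (-0.42) had exact permutation p of 0.4, 0.5143 and 0.1714. By pairs, the scaled value was higher in Tcf-1 RV in 4 of 4 pairs for Nfia and lower in 4 of 4 for Nfic. The exact sign-flip p was 0.125 for Nfia, Nfib and Nfic, the smallest that 4 pairs allow, and 0.625 for Nfix.

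The NIH3T3 peaks merged into 120 regions in the 4 windows, 45 at Nfia, 29 each at Nfib and Nfix and 17 at Nfic. Per 100 kb this was 7.022 at Nfia, 9.16 at Nfib, 14.76 at Nfix and 12.52 at Nfic, beside a median of 4.77. Fewer per 100 kb were found in 72.9%, 87.4%, 99.3% and 97.4% of all windows. Of the 120 regions, 24 were held by all 8 libraries, a pattern of 24% of all NIH3T3 regions: 7 at Nfia, 7 at Nfib, 6 at Nfix and 4 at Nfic. None was gained, that is held by all 4 Tcf-1 RV and no Empty RV library, which allows a share of up to 2.5%, and 1.08% of all NIH3T3 regions were. A single region was lost, held by all 4 Empty RV and no Tcf-1 RV library, where 0.11% of all regions were. It lies at chr4:82549905-82550130, 43154 bp beyond the higher-coordinate end of Nfib, inside an H3K9me3 island, and holds no Tcf-1 summit. It was not called with equal lists of the widest peaks. The gained and lost patterns each have a Fisher exact p of 0.0286, and neither passes adjustment over all regions.

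Tcf-1 RV replicate 3, the shortest list of its group, decided whether Nfia had gained regions. Without it 4 regions of Nfia and none of the other members were gained, against 3.39% of all NIH3T3 regions. All 4 were held by Tcf-1 RV 1, 2 and 4 and no other library, the pattern of 2.32% of all NIH3T3 regions. They lie inside the gene at chr4:97730572-97731001, chr4:97834847-97835474, chr4:97911000-97911241 and chr4:98032564-98032935. All except the third held a Tcf-1 summit, with deposited scores of 20.78, 103.4 and 83.4. Genome-wide 70.2% of regions with that pattern held a summit. Called by replicate pairs, with at least 3 of 4 pairs in 1 direction and none in the other, Nfia had 4 gained regions against 4.52% of all regions, and no other member had any.

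With the day 2 tag alone 9 regions of Nfia, 3 of Nfix and 1 of Nfib were gained, where 12.1% of all regions were. With the day 4 tag none was gained in any member, where 1.92% of all regions were, and 1 region of Nfia, 2 of Nfic, 1 of Nfix and 1 of Nfib were lost, where 3.15% were. Another pattern of Nfia was common to Empty RV and Tcf-1 RV. Of its 45 regions, 7 were held by all 4 libraries with the day 4 tag and by none with the day 2 tag, a pattern of 2.48% of all NIH3T3 regions. Nfix had 1 such region and Nfib and Nfic had none. In Empty RV both day 4 lists were longer than both day 2 lists, so list length there cannot be told apart from the day. In Tcf-1 RV the day 2 lists held 47623 and 43527 peaks. Of the day 4 lists, replicate 3 was shorter (36583) and replicate 4 longer (62639). The part of list length was not tested.

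Tcf-1 binding in fibroblasts was most dense at Nfib. The windows of Nfia and Nfib each held 22 summits, Nfix 6 and Nfic 2. Per 100 kb this was 6.949 for Nfib, 3.433 for Nfia, 3.053 for Nfix and 1.474 for Nfic, beside a median of 1.586 over all windows. For Nfib 96.6% of windows had a lower density. All 22 summits of Nfia lay in the gene body, as did 12 of the 22 of Nfib. The summit list is pooled, so no replicate spread can be given, and its scores are the authors', on a scale that is not stated (median 17).

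The summits fell on fibroblast chromatin of 3 kinds. Of the 52 summits, 18 lay in a peak of an Empty RV library, 12 in a peak of Tcf-1 RV only and 22 in no NIH3T3 peak. Over the whole list these shares were 35.5%, 18.1% and 46.5%. At Nfia the numbers were 7, 7 and 8, at Nfib 9, 5 and 8. None of the 52 lay in a WT thymocyte peak, where 7.53% of all summits did. The 22 summits of the Nfib window could not, because that window held no DP peak. None of the 49 DP regions held a summit, where 9.06% of all DP regions and 6.19% of all lost DP regions did. A count of 0 among 49 allows a share of up to 6.12% if regions are independent, which neighbouring regions of chosen windows need not be. The summits come from fibroblasts, and Tcf-1 binding in thymocytes was not analysed here.

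The highest summit of Nfib, with a score of 152.4, stood at chr4:82416002 inside the gene. Its region, chr4:82415888-82416257, was held by Tcf-1 RV 1 and 4 and by no other library. The next highest, 145.2 at chr4:82553831, lay in a flanking region held by Empty RV 3 and 4 and all Tcf-1 RV libraries, within an H3K9me3 island. Around the higher-coordinate end of Nfib, chr4:82505262-82506681 was open in all 8 NIH3T3 libraries and held 2 summits. Another 5 summits followed in the next 5 kb of flank. The highest summit of Nfia, 118.9 at chr4:97926976, lay in chr4:97926718-97927525, which was open in all 8 libraries and in no DP library.

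**Figure D4:**
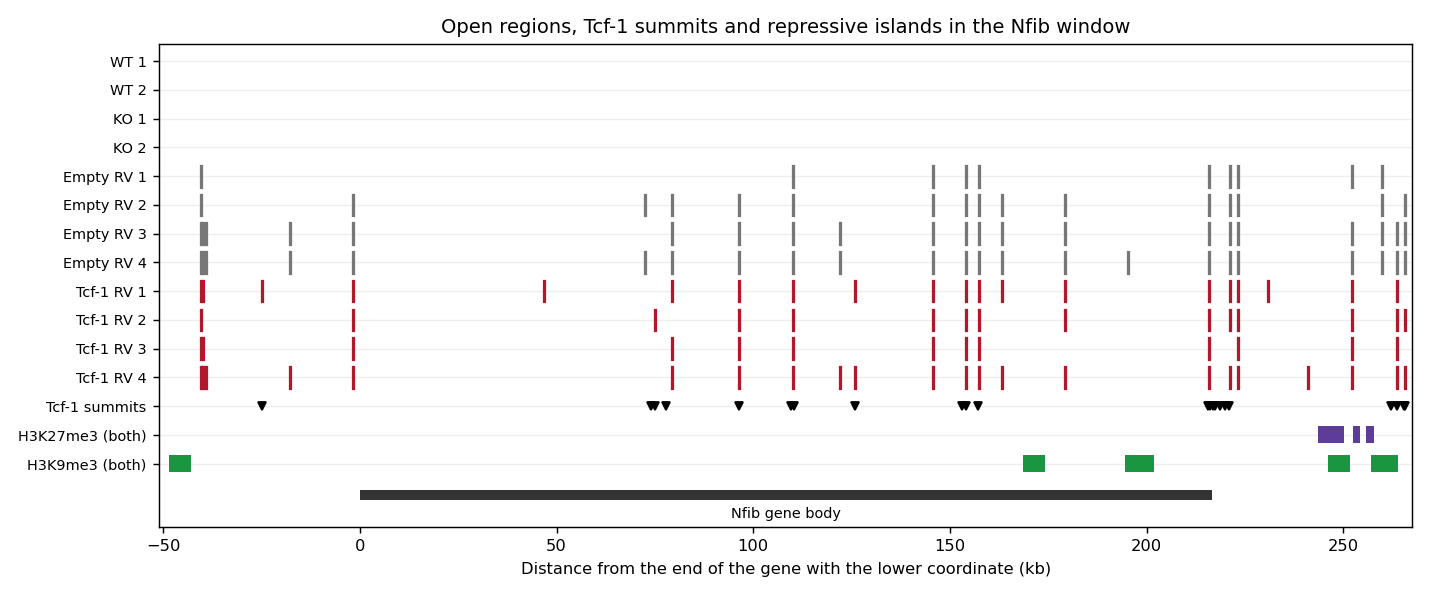
Map of the Nfib window drawn like that of Nfia, with distance from the lower-coordinate end of the gene in kb on the x axis and 1 row per library. The 4 DP rows are empty, 7 regions run through all 8 NIH3T3 rows, and summits (triangles) cluster at the end of the gene with the higher coordinate.

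Regions with no Empty RV peak held summits more often than regions with no Tcf-1 RV peak, in these windows as over all NIH3T3 regions. Of the 120 NIH3T3 regions of the 4 windows, 19 had no peak in Empty RV and 10 of these held a summit, 7 of 9 at Nfia and 3 of 6 at Nfib. The other 15 regions without a peak in 1 group, those with none in Tcf-1 RV, held 0 summits. Of all 77882 NIH3T3 regions, 17336 had no Empty RV peak and 7832 had no Tcf-1 RV peak. The shares of these with a summit were 36.2% and 2.76%.

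Cover by repressive islands differed between the members. H3K27me3, the mark of Polycomb repression, covered 26.6% and 22% of the Nfia window in replicates 1 and 2, and 18.3% was covered in both. These shared islands formed 24 segments of 117 kb in all, mostly in the part of the gene with the lower coordinates, between chr4:97615001 and chr4:97768600. In the Nfic window 14.9% and 17.5% were covered (14.9% shared), with none in the gene itself: the 2 segments lay between chr10:81435401 and chr10:81456800, between Nfic and Celf5. Nfib had 5.18% and 5.12% (3.29% shared), also with none in the gene, and Nfix had 0% in both replicates. The shared cover had a median of 6.24% and a mean of 13.8% over all windows, and 32.6% of windows had none. Less was covered in 70.9% of windows than at Nfia, and in 66% than at Nfic.

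H3K9me3, the mark of constitutive heterochromatin, covered 15% and 14.4% of the Nfib window (9.73% shared) and 8.44% and 9.19% of the Nfia window (6.75% shared). It covered 3.05% and 2.44% of the Nfix window (2.44% shared) and none of the Nfic window. The shared cover had a median of 1.88% and a mean of 7.39% over all windows, and 43.4% of windows had none. Less was covered in 79.8% of windows than at Nfib, and in 72.2% than at Nfia. The H3K27me3 islands of Nfia and Nfib and the H3K9me3 islands of Nfib were weak by the authors' deposited fold over control. For H3K27me3 the medians were 1.57 and 1.63 at Nfia and 1.44 and 1.59 at Nfib, against 2.02 and 2.03 over all islands. For H3K9me3 the medians of Nfib were 1.51 and 1.65, against 2.14 and 2.09 over all islands. Those of Nfia were 2.05 and 1.7, with highest folds of 2.55 and 3.4. With islands of a fold of at least 2 only, H3K27me3 covered 1.9% of the Nfia window and 10.6% of the Nfic window, and the H3K9me3 cover of Nfib went from 9.73% to 1.77%.

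**Figure D5:**
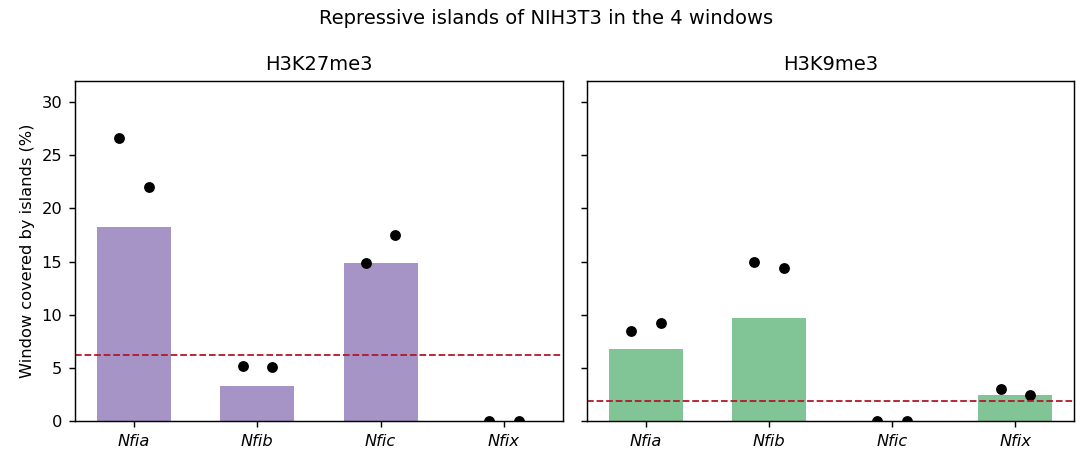
Percentage of each window covered by H3K27me3 (left) and H3K9me3 (right) islands of NIH3T3 (y axis) for the 4 genes (x axis). Points are the 2 replicates, bars the bases shared by both, and the dashed line the median shared cover of all windows. Nfia and Nfic lie above that line for H3K27me3, Nfib and Nfia for H3K9me3 most clearly.

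Islands met open regions in each of the 4 windows. Of the 13 lost DP regions of Nfia 3 lay in H3K27me3 islands of the fibroblasts, where 10.3% of all lost DP regions did, and 1 of these, chr4:98131708-98131969, also in an H3K9me3 island. Of the 45 NIH3T3 regions of Nfia, 3 lay in H3K27me3, among them chr4:97730572-97731001, which held a peak in 3 Tcf-1 RV libraries and a summit. At Nfic 1 of 17 NIH3T3 regions did and at Nfib and Nfix none, where 3.69% of all NIH3T3 regions did. In H3K9me3 lay 2 of the 45 NIH3T3 regions of Nfia, 3 of 29 of Nfib, 1 of 29 of Nfix and 0 of 17 of Nfic, where 6.15% of all NIH3T3 regions did. No lost region of Nfic or Nfix lay in an island of either mark.

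The genes whose windows varied most like those of the family over the 12 libraries, by Pearson r of peaks per 10000 listed peaks, differed between members. For Nfib they were Sema3a (0.991), Apol7b (0.99) and Adamtsl1 (0.99), for Nfia Nyap2 (0.978), Herc3 (0.970) and Cdc14a (0.957). Nfix was most like Srebf1 (0.942), Mrpl28 (0.900) and Mvb12b (0.896), and Nfic most like Kif20b (0.905), Tmub1 (0.893) and Nos1 (0.889). The libraries fall into 2 cell types whose lists also differ in length, so these values are a description over 15116 to 15132 genes compared. Sema3a held 1 peak in each WT library, 0 in KO and 10 to 21 in NIH3T3, Apol7b and Adamtsl1 0 in all DP libraries.

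Genes that reviews name as partners or targets of the family were read in the same way, 15 in all. Of these 6 had a lost DP region in their window, where 47.4% of all windows did. Bbx, a high-mobility-group gene, lost 5 of 8 regions, Hes1, a repressor of the Notch pathway, 2 of 4, Apcdd1, a Wnt inhibitor, 2 of 5, Fabp7, a fatty-acid-binding protein of glia, 2 of 3, Ski, a corepressor, 2 of 11 and Ckm, the muscle creatine kinase, 1 of 6. The denominators are all DP regions of each window. The median over the 15 genes was 0 lost regions, as over all windows. In NIH3T3, Hes1 had 1 gained region and Col1a2, a fibroblast collagen, 1 lost region. None of the 15 had an unadjusted exact permutation p below 0.05 for the number of peaks, and the median difference of Tcf-1 RV minus Empty RV was 1 peak, beside 0.5 over all windows. Of the 15 windows 14 held a Tcf-1 summit, where 72.1% of all windows did, with 18 each at Hes1 and Col1a2 and none at Mstn.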

How the data were processed

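ATAC-seq peaks, Tcf-1 summits and histone islands were read from 16 samples with a file of their own (of 321 in the series) and 1 pooled summit list. RNA-seq, single-cell ATAC-seq, input and other ChIP-seq libraries were not analysed here. The submitters' processing notes name Bowtie2 2.2.9 and STAR 2.5, MACS2, Picard, Trim Galore and FastQC, and the builds GRCm38, mm10 and GRCh37, without saying which files each was used for. Each deposited ATAC-seq file lists peak positions per library, with no read count, so depth is unknown and list length was used in its place. The deposited summit file gives a score per summit on a scale that is not stated. The deposited island files give ChIP and control read counts, a ratio (fold) of ChIP over control and a p-value per island, as the authors computed them per library.

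Peaks sharing at least 1 bp were merged per cell type, and a library held a region if a peak overlapped it. The 293 peaks outside placed chromosomes were dropped. Windows came from the GRCm38.p6 gene table, which gives no strand or exons. Positions inside genes are therefore not split by exon and intron. Peaks per window were compared over 21887 windows with exact two-sided permutation tests and Benjamini-Hochberg adjustment (Python 3.11.15, NumPy 2.4.6, SciPy 1.17.1), tested on simulated data. NIH3T3 libraries were paired by replicate number, although no label ties them. Deviations of same-numbered libraries correlated at 0.187, 0.189, 0.125 and 0.26. Differently numbered libraries of 1 day tag correlated at 0.0648 to 0.194, the highest being Empty RV 2 with Tcf-1 RV 1, and those of different tags at -0.243 to -0.0895. Within the day 2 tag, pairs by number are therefore not set apart from the shared tag. The members and lists were chosen with earlier results of these data known. Named are the members, their gained or lost NIH3T3 regions, the regions at their ends and the 3 most similar windows for each. Other regions named were chosen after their values were seen. Alternatives were the window, equal lists of widest peaks, overlap rules, scaling, replicate pairs, day tags, score and fold minimums and leaving out libraries.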

Additional observations from a re-analysis of the deposited data

Results flagged for a closer look

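The number of peaks in the Nfic window moved in opposite directions under the 2 day tags of the NIH3T3 libraries. With the day 2 tag both pairs of equal replicate number had more peaks in Tcf-1 RV (differences of 2 and 1), and with the day 4 tag both had fewer (-4 and -2). The means of these differences, 1.5 and -3, are 4.5 peaks apart. In an exact two-sided permutation test of the 4 pair differences this had p = 0.333, the smallest that 2 against 2 pairs allow, so the test could not pass 0.05. It was added after the data were seen. The gap between the tags had the same direction and was larger at Nfia (11.5), Nfix (11) and Nfib (10.5), where the pairs of a tag did not all share a sign. Per 10000 listed peaks, Nfic held 1.76, 2.02, 2.14 and 2.59 in Empty RV replicates 1 to 4. The scaled Tcf-1 RV values were 1.26, 1.84, 1.64 and 2.08, lower in every pair of both tags. List lengths differed between the libraries, and their part was not tested further. In none of the 8 groups of 4 NIH3T3 libraries did 1 library stand apart from the others in the number of peaks in a member window.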

How the results depend on the processing

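The NIH3T3 difference in peaks (Tcf-1 RV minus Empty RV) had p from 0.125 to 1 for Nfia, 0.0571 to 0.971 for Nfib, 0.125 to 1 for Nfic and 0.2 to 1 for Nfix over 16 alternatives each, by exact permutation or sign-flip tests. None went below 0.05, but sign-flips over 4 pairs cannot go below 0.125, nor tests within 1 day tag below 0.333, so these could not pass. Its sign turned with the day 4 tag for Nfia (-1) and Nfix (-2.5), with the day 2 tag for Nfib (4.5) and Nfic (1.5), with flanks of 100 kb for Nfib (0.75) and with equal lists of the widest peaks for Nfix (-2). Leaving out 1 library gave -3.75 to 1.25 for Nfib, -2.417 to 1.25 for Nfic, 0.9167 (without Tcf-1 RV 4) to 9.167 (without Empty RV 4) for Nfia and 0.1667 (without Empty RV 1) to 5.5 (without Empty RV 4) for Nfix. Where not said otherwise, the cause was not tested.

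The DP difference (WT minus KO) was 4.5 for Nfia, 0 for Nfic and -2 for Nfix with equal lists of the 11171 widest peaks, and 3.996, -0.9374 and 0.485 per 10000 listed peaks. For Nfic it was 0 in the gene body and 8.5 with 100 kb flanks. With the widest peaks, lost DP regions numbered 5, 0 and 0 for Nfia, Nfic and Nfix, 1 region each of Nfia and Nfix was gained, and no NIH3T3 region of Nfib was lost. In the gene body alone 0 DP regions of Nfic and 3 of Nfix were lost, with 100 kb flanks 5 of Nfic, and with 50% cover 2 of Nfic. Leaving out 1 DP library gave 13 to 20 lost regions for Nfia, 1 to 2 for Nfic and 5 to 10 for Nfix, and 0 to 1 gained for Nfix.

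NIH3T3 regions gained at Nfia were 4 under the replicate block, 9 with the day 2 tag and 0 to 4 with 1 library left out. Under this pairing no other call changed. The day 2 tag gave 1 gained region for Nfib and 3 for Nfix, and the day 4 tag 1 lost region for Nfia, 2 for Nfic and 1 for Nfix. Nfib had 1 gained region with 100 kb flanks and 1 with 50% cover, and 0 lost in the gene body.

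Summits in the gene body alone were 12 for Nfib, 1 for Nfic and 2 for Nfix, and those at or above the median score 0 for Nfic and 1 for Nfix. Islands of either replicate covered 30.32% (H3K27me3) and 10.87% (H3K9me3) of the Nfia window, 7.012% and 19.71% of Nfib, and 17.53% (H3K27me3) of Nfic and 3.053% (H3K9me3) of Nfix. Islands of a fold of at least 2 covered 1.904% and 1.436% for Nfia, 0% and 1.769% for Nfib and 10.61% (H3K27me3) for Nfic. In the gene body H3K27me3 covered 0% of Nfib and of Nfic, and H3K9me3 1.701% of Nfia, 5.91% of Nfib and 2.901% of Nfix. With 100 kb flanks H3K27me3 covered 3.361% for Nfib and 1.159% for Nfix, and H3K9me3 16.13% for Nfib and 0.6787% for Nfic. One replicate alone gave, for H3K27me3, 21.95% to 26.62% for Nfia, 5.117% to 5.18% for Nfib and 14.88% to 17.53% for Nfic, and for H3K9me3 8.439% to 9.188% for Nfia, 14.4% to 15.04% for Nfib and 2.442% to 3.053% for Nfix. List length, in place of read depth, limits what the ATAC-seq lists can show.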

Other observations

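Only 2 annotated microRNA genes lie in the 4 windows, both in that of Nfic. Mir1191b, at chr10:81416240-81416297, lies inside Nfic next to chr10:81416667-81417189, an NIH3T3 region open in all 8 libraries and without a DP peak. Mir6913, at chr10:81386347-81386412, lies in the flank. The 3 Nfix summits with the lowest coordinates, chr8:84659124, chr8:84659454 and chr8:84660107, lay in no peak of any library and had deposited scores of 1.164, 1.01 and 9.011, below the median of the list.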
